A study of Mus musculus with 16 samples.

Results

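The 37 genes described here encode the machinery that folds, modifies and clears proteins in the endoplasmic reticulum (ER), together with the sensors and transcription factors of the unfolded protein response. They were chosen by name and not by a cut on a measured value, but with earlier results of these data known. For each the brightest probe set, by its average over 16 arrays, stands for the gene, among those listed under its symbol alone. All 37 were on the array and all 37 passed the filter on dim probe sets, out of 17097 genes on the array and 14410 tested. RNA came from the luminal cells of mouse mammary glands, sorted by flow cytometry, and was measured on Affymetrix arrays in 4 groups of 4. Mice of the first group carried a floxed p38a allele and MMTV-Cre and were 9 weeks old (called p38a-lox here), and their controls of 9 weeks carried MMTV-Cre alone (MMTV-Cre). Mice of the third group carried floxed p38a, MMTV-Cre and the MMTV-PyMT oncogene and were 6 weeks old (p38a-lox PyMT), and their controls of 6 weeks carried MMTV-Cre and MMTV-PyMT (PyMT). Every group therefore carried MMTV-Cre. The MMTV promoter drives Cre recombinase or the polyoma middle T oncogene in mammary epithelium. How many of the sorted cells had recombined the allele is not known here. Since no label ties an array to an animal of its own, the p-values measure only how these samples spread, which may be technical.

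Proteins bound for the cell surface, the milk or the secretory pathway enter the ER through the Sec61 translocon, where chaperones such as BiP (Hspa5) and protein disulfide isomerases fold them. Proteins that fail to fold are drawn back to the cytosol and degraded by the proteasome, a route called ER-associated degradation. When folding demand exceeds capacity, the membrane sensors IRE1 (Ern1), PERK (Eif2ak3) and ATF6 start the unfolded protein response. IRE1 splices the mRNA of the transcription factor Xbp1, PERK phosphorylates eIF2α and thereby favours translation of Atf4, and ATF6 is cut to release a transcription factor. Secretory tissues such as the mammary gland depend on this machinery. Array signals report transcript levels, and neither splicing of Xbp1, phosphorylation nor cleavage of ATF6 can be read from them. p38a, encoded by Mapk14, is a stress-activated kinase.

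ATF6 and XBP1 act through the ER stress response element (ERSE), a CCAAT box bound by NF-Y and a CCACG box at a fixed spacing, and it is shown here because 6 of the 9 ER genes that carry it encode chaperones. RefSeq promoter windows of assembly GRCm38.p6, from 250 bases before to 50 bases after the annotated gene start, were matched to 31 of the 37 genes. The window of Edem1 (chr6:108828391-108828690) lay inside the gene, whose listed start is 108824045. Derl2 had several windows, none with a match, and the first listed was counted. The element, CCAAT and CCACG with 9 bases of any kind between them, was searched on both strands and was in the windows of 9 of these 31 genes (29.0%), against 35 of the 27025 genes with a window (0.130%). The genes were chosen by name as parts of this response, so the high share describes the list and is no independent result. The matches follow, read 5′ to 3′ along the strand that carries them, with the fixed bases in capitals and the spacer in lower case.
Hspa5: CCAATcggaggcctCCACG
Hsp90b1, on the gene's strand: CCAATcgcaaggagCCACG
Hsp90b1, on the opposite strand: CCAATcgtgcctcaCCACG
Calr: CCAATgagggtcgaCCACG
Canx: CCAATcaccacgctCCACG
Dnajc3: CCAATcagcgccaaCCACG
Creld2: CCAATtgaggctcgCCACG
Pdia6: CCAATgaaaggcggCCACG
Syvn1: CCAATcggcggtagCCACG
Derl3: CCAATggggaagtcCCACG
The spacers differ from gene to gene, and the matches in Calr, Creld2 and Derl3 lie on the strand opposite to the gene. The shorter variant ERSE-II, ATTGG and CCACG with 1 base of any kind between them on either strand, was in the windows of 2 of the 31 genes (6.45%), against 10 of 27025 (0.0370%).
Herpud1: ATTGGgCCACG
Dnajb11: ATTGGcCCACG
The XBP1 element TGACGTGG was in 0 of the 31 windows and in 164 of 27025 (0.607%). The ATF4 element TGATGNAA was in the window of Herpud1 alone among the 31 (3.23%), against 1096 of 27025 (4.06%). The matches listed do not overlap each other, and a match describes letters, not an occupied site.

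The 250 bases before the start of Hspa5 and of Hsp90b1 show where the element sits. Hspa5 lies on the plus strand (chr2:34771840-34772089) and carries its match 65 bases before the start. Hsp90b1, the gene of the chaperone GRP94, lies on the minus strand (chr10:86705445-86705694) and carries matches that begin 212 and 107 bases before the start. Capitals mark the ERSE matches, and the second one of Hsp90b1 appears as its reverse complement.
Hspa5: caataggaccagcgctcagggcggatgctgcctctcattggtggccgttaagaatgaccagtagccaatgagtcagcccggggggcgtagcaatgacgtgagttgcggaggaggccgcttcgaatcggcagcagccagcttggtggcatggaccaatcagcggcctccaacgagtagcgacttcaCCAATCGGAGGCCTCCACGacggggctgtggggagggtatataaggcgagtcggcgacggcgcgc
Hsp90b1: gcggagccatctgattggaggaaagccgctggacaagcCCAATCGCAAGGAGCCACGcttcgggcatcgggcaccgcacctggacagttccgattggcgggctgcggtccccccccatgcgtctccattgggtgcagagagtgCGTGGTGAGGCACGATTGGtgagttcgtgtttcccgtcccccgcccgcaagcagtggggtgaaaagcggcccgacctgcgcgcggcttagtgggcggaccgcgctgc

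**Figure D1:**
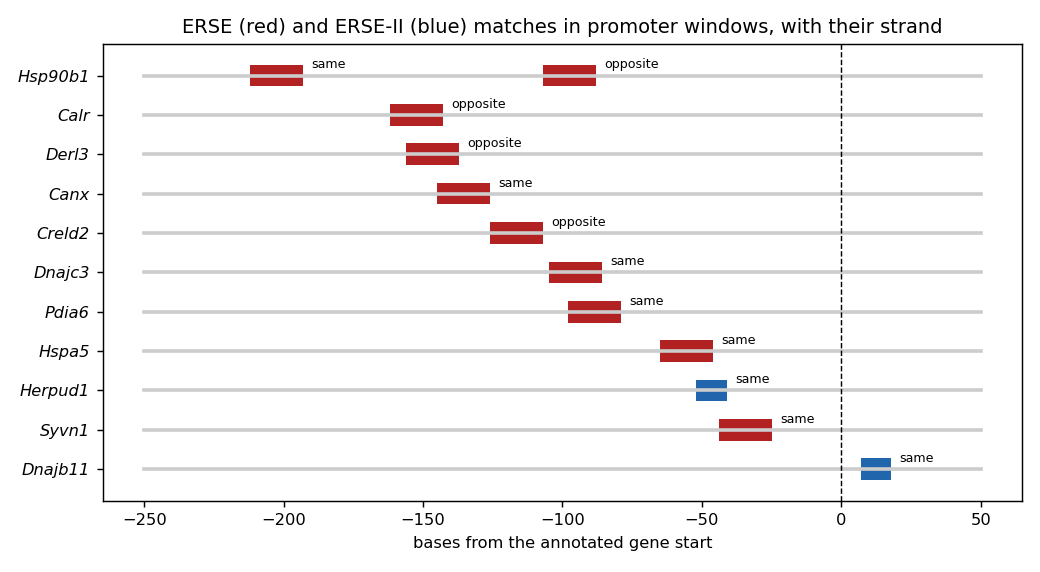
Positions of ERSE matches (red) and ERSE-II matches (blue) in the promoter windows of the 11 ER genes that hold one, in bases from the annotated start (dashed line), with the strand of each match relative to the gene. Hsp90b1 holds 2 matches, and the match of Dnajb11 is the only one after the start.

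The median log2 signal of an array was 4.63 to 4.88, and correlations between arrays ran from 0.885 to 0.990. p38a-lox replicate 2 and PyMT replicate 4 stood apart, each with a median correlation of 0.934 with the other arrays, and the counts below are also given without both. The luminal keratins Krt8 and Krt18 and the epithelial adhesion molecule Epcam averaged 12.3, 12.1 and 11.5 over the 16 arrays. The averages of 11 luminal genes ran from 5.15 (Foxa1) to 12.3, and those of 7 basal cell genes from 5.25 (Oxtr) to 9.34 (Krt5). Of 7 immune cell genes, 3 (Ptprc, Cd3e and Itgam) averaged 2.83 to 3.27, below the filter. The other 4 passed it, with Lyz2 at 3.99, Csf1r at 5.08, Cd74 at 5.93 and Cd68, a macrophage marker, at 7.68 (5.38 to 9.44). Mapk14 read 6.79, 6.37, 7.91 and 8.16 in p38a-lox arrays, against 7.11, 7.43, 5.56 and 6.02 in MMTV-Cre arrays. With PyMT, Mapk14 read 7.09, 7.25, 7.34 and 7.24 in p38a-lox PyMT arrays, against 7.17, 7.12, 7.64 and 6.88 in PyMT arrays. The groups overlapped in both comparisons and the mean was higher in the arrays labelled p38a-lox (log2 differences 0.78 ± 0.416 and 0.03 ± 0.416, SE, limma adjusted p = 0.999 for each). The position of the probe set relative to the deleted part of the gene is not known here. The group means of this signal do not bear the labels out, nor can they show that the labels are wrong. Below, p38a-lox means the arrays labelled so.

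The comparison of p38a-lox with MMTV-Cre asks how luminal cells without the oncogene differ when the p38a allele is floxed. Of the 37 ER genes, 33 had a lower estimate in the arrays labelled p38a-lox and 4 a higher one, with a median log2 difference of −0.35, while 49.9% of all 14410 tested genes were lower and their median was 0.00. The chaperones had a median of −0.59, the disulfide isomerases −0.50, the degradation factors −0.35, the sensors and transcription factors −0.19 and the translocon subunits −0.11. No ER gene passed the limma test over all genes (0 of 37 and 0 of 14410, 0% of genes, with 690 genes at an unadjusted p under 0.05). The smallest adjusted p of an ER gene was 0.742. At an unadjusted p under 0.05, 11 ER genes were lower, against 2.47% of all tested genes, and 0 were higher, against 2.32%. In 6 of the 37 every p38a-lox array was below every MMTV-Cre array, against 1.17% of all tested genes, and in 0 of the 37 above, against 0.93%.

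The mean over the 37 genes was 8.38, 8.14, 8.42 and 8.38 in p38a-lox arrays, against 8.69, 8.87, 9.11 and 8.41 in MMTV-Cre arrays. MMTV-Cre replicate 4 lay next to the p38a-lox arrays and replicate 3 highest, with 32 of the 37 genes above the MMTV-Cre mean in replicate 3 and 6 in replicate 4. The difference is thus set against controls that themselves ran from low to high for most of these genes. Genes with strong signals leaned the same way as a whole. Of the 2564 tested genes with a mean of at least 8, 60.3% were lower in p38a-lox arrays with a median of −0.07, and 22 of the 24 ER genes at that level were lower. Fewer cells of a type and less RNA per cell cannot be told apart in such bulk samples. The mean of 6 fibroblast genes also separated the groups, with 4.30 to 4.67 in p38a-lox arrays and 4.85 to 5.64 in MMTV-Cre arrays. Of these 6, Col1a2, Pdgfra and Lum were below the filter, and the other 3 were lower in p38a-lox with 0 called. The mean of 10 immediate early genes, which also respond to cell isolation, was 8.12 to 9.08 in p38a-lox arrays and 7.69 to 8.69 in MMTV-Cre arrays. Of these 10, 6 were higher in p38a-lox and 4 lower, from −0.59 (Atf3) to 2.75 (Egr1), with 0 called. In 2 of them every p38a-lox array was above every MMTV-Cre array, against 0.93% of all tested genes. The mean of 11 luminal genes was 9.06 to 9.25 in p38a-lox arrays and 8.93 to 9.91 in MMTV-Cre arrays, which overlapped. Of these 11, 9 were lower in p38a-lox and 2 higher, against 49.9% of all tested genes lower. Their differences ran from −1.26 (Pgr) to 1.39 (Kit) with a median of −0.11 and 0 called. The part of any of these lists in the result was not tested.

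**Figure D2:**
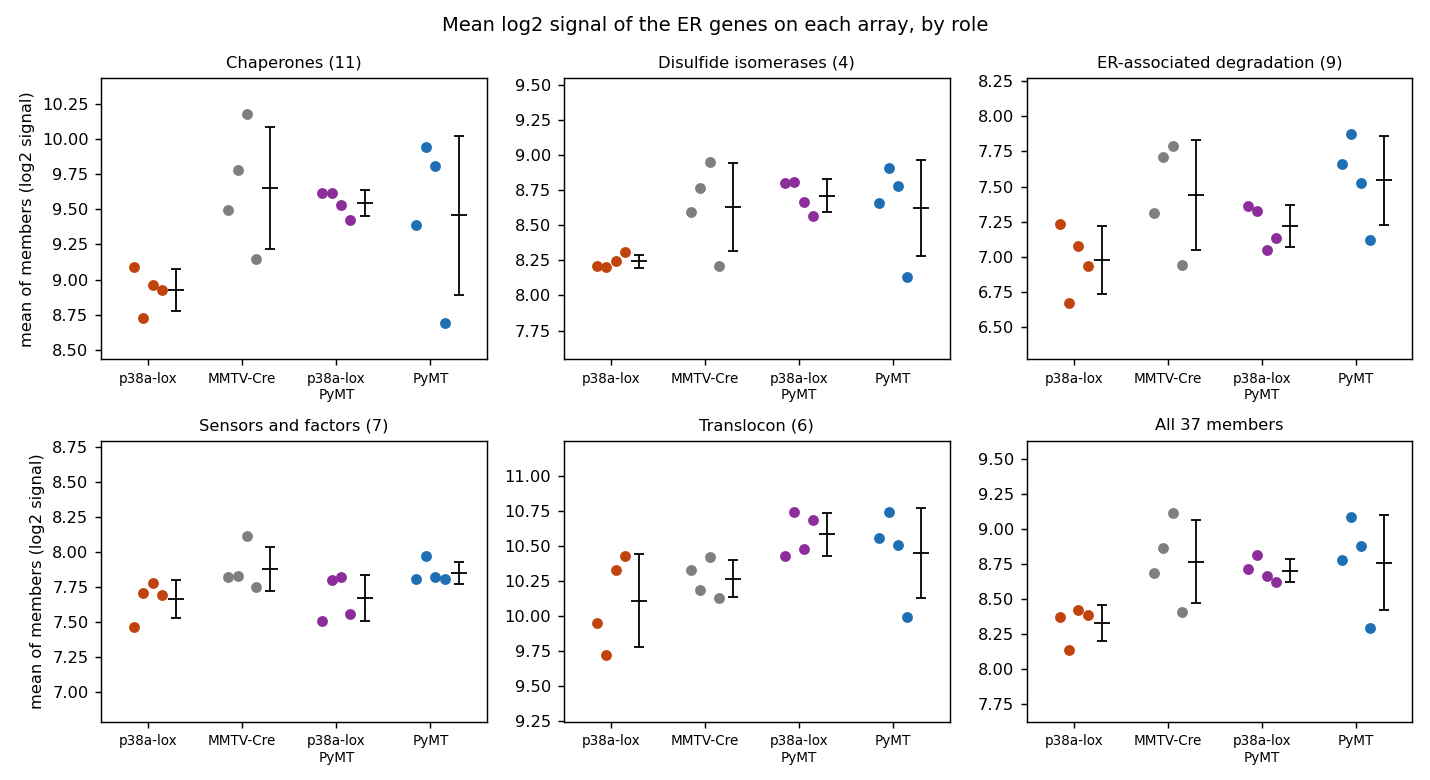
Mean log2 signal of the ER genes on each array, by role and over all 37 genes, with each point an array and bars the group mean ± SD of 4 arrays. The chaperone means of the 4 p38a-lox arrays lay between 8.72 and 9.09, below the MMTV-Cre arrays at 9.15 to 10.18.

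Chaperones were the role with the largest median difference, and all 11 had a lower estimate in p38a-lox arrays. Hspa5, the Hsp70 of the ER that also holds the sensors inactive, read 10.32, 9.39, 9.89 and 8.98 in p38a-lox arrays, against 10.38, 10.73, 11.38 and 10.45 in MMTV-Cre arrays. Every p38a-lox array lay below every MMTV-Cre array, though the nearest were 0.07 apart. The log2 difference was −1.09 ± 0.337 (SE), or 2.13-fold lower, with a limma adjusted p of 0.749 and a 95% interval of −1.81 to −0.37. Sdf2l1, which forms a complex with the co-chaperone Dnajb11 and prevents aggregation, read 6.31, 5.51, 6.94 and 6.86 in p38a-lox arrays, against 7.60, 8.39, 8.97 and 6.90 in MMTV-Cre arrays. Its groups met only at MMTV-Cre replicate 4, and its difference of −1.56 ± 0.482 (2.95-fold lower, adjusted p = 0.749) was the largest of the 37. Calr, the lectin chaperone calreticulin, read 10.03, 10.30, 10.28 and 10.11 in p38a-lox arrays, against 10.57, 10.60, 11.11 and 10.51 in MMTV-Cre arrays. The groups did not overlap, and Calr had the smallest p of the ER genes at a difference of only −0.52 ± 0.156 (adjusted p = 0.742). Its partner Canx, the membrane-bound calnexin, differed by −0.21 ± 0.319, and by 0.08 without p38a-lox replicate 2 and PyMT replicate 4.

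Dnajc3 (P58IPK), a co-chaperone of BiP that can inhibit PERK, read 7.74, 7.82, 7.75 and 7.82 in p38a-lox arrays, against 7.98, 9.01, 9.34 and 8.26 in MMTV-Cre arrays. The p38a-lox arrays were nearly identical and all lay below the controls, which spread widely (−0.86 ± 0.391, adjusted p = 0.999). Manf, a secreted protein retained in the ER by BiP, read 10.51, 10.71, 10.26 and 9.92 in p38a-lox arrays, against 10.76, 10.89, 11.38 and 10.72 in MMTV-Cre arrays. Its groups were less than 0.01 apart (−0.59 ± 0.277, adjusted p = 0.999). Hyou1, a large ER chaperone that acts as an exchange factor of BiP, read 8.60, 8.63, 8.07 and 8.54 in p38a-lox arrays, against 9.01, 9.81, 9.78 and 8.24 in MMTV-Cre arrays. It was lower in p38a-lox than in every control except MMTV-Cre replicate 4 (−0.75 ± 0.304, adjusted p = 0.977), which itself lay below 3 of the p38a-lox arrays. The remaining chaperones overlapped between the groups. They were Dnajb9 (ERdj4), which promotes degradation of misfolded clients (−0.86 ± 0.385), Hsp90b1 (−0.58 ± 0.354), Creld2 (−0.58 ± 0.281) and Dnajb11 (ERdj3, −0.40 ± 0.226).

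The disulfide isomerases, which form and rearrange disulfide bonds, gave 3 lower estimates and 1 higher. Pdia4 read 8.52, 8.73, 8.91 and 8.67 in p38a-lox arrays, against 9.22, 9.76, 10.12 and 8.89 in MMTV-Cre arrays. The groups touched only where MMTV-Cre replicate 4 fell just under p38a-lox replicate 3 (−0.79 ± 0.29, adjusted p = 0.913). Pdia6 read 8.84, 8.32, 8.68 and 8.97 in p38a-lox arrays, against 9.19, 9.54, 9.95 and 8.87 in MMTV-Cre arrays. Here too MMTV-Cre replicate 4 alone fell among the p38a-lox arrays (−0.69 ± 0.246, adjusted p = 0.87). P4hb, the classical protein disulfide isomerase, differed by −0.30 ± 0.292. Pdia3, the isomerase that works with calnexin and calreticulin, was read by a dim probe set with group means of 4.39 to 4.75 and differed by 0.23 ± 0.221.

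All 9 genes of ER-associated degradation had a lower estimate in p38a-lox arrays, from −1.24 to −0.05. Edem1, a mannosidase-like protein that marks misfolded glycoproteins, read 6.54, 5.87, 6.13 and 6.44 in p38a-lox arrays, against 7.14, 7.91, 8.12 and 6.78 in MMTV-Cre arrays. The groups did not overlap (−1.24 ± 0.412, 2.36-fold lower, adjusted p = 0.833). Its relatives Edem2 and Edem3 differed by −0.35 ± 0.28 and −0.05 ± 0.62, and Edem3 varied most, from 5.48 to 8.26 within the p38a-lox arrays. Syvn1 (HRD1), the ubiquitin ligase of the pathway, read 5.38, 5.15, 5.40 and 4.97 in p38a-lox arrays, against 5.95, 6.44, 5.92 and 5.24 in MMTV-Cre arrays. MMTV-Cre replicate 4 again lay among the p38a-lox arrays (−0.66 ± 0.229, adjusted p = 0.851). Sel1l, the adaptor that stabilises HRD1, differed by −0.63 ± 0.424. Herpud1, which joins the HRD1 complex under stress, differed by −0.28 ± 0.319. The derlins Derl1, Derl2 and Derl3, membrane proteins of the retrotranslocation step, differed by −0.19 ± 0.235, −0.45 ± 0.408 and −0.31 ± 0.213.

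Among the sensors and transcription factors, Atf4 was the gene whose groups separated. It read 10.10, 10.24, 9.80 and 9.40 in p38a-lox arrays, against 10.36, 10.28, 10.78 and 10.44 in MMTV-Cre arrays. The gap between the groups was 0.03 (−0.58 ± 0.249, adjusted p = 0.993). The sensors Ern1, Eif2ak3 and Atf6 differed by −0.17 ± 0.283, −0.19 ± 0.195 and 0.03 ± 0.197, each within the overlap of the groups. Xbp1 read 8.49, 7.30, 9.55 and 9.76 in p38a-lox arrays, against 8.96, 8.76, 9.22 and 8.98 in MMTV-Cre arrays. The p38a-lox arrays lay on both sides of the controls, and the difference was −0.21 ± 0.437, or 0.29 without p38a-lox replicate 2 and PyMT replicate 4. Ddit3 (CHOP), the stress-induced factor linked to cell death, differed by −0.16 ± 0.327, and Ppp1r15a (GADD34), which restores eIF2α to its unphosphorylated form, by −0.24 ± 0.279. The translocon genes had the smallest median. Sec61a1 and Sec61b, channel subunits, differed by 0.01 ± 0.208 and −0.11 ± 0.176, but the other 3 probe sets of Sec61a1 differed by −0.40, −0.37 and −0.71. Ssr1, Ssr2, Ssr3 and Ssr4, which form the translocon-associated complex TRAP, differed by −0.52 ± 0.447, 0.06 ± 0.285, −0.29 ± 0.246 and −0.10 ± 0.26.

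**Figure D3:**
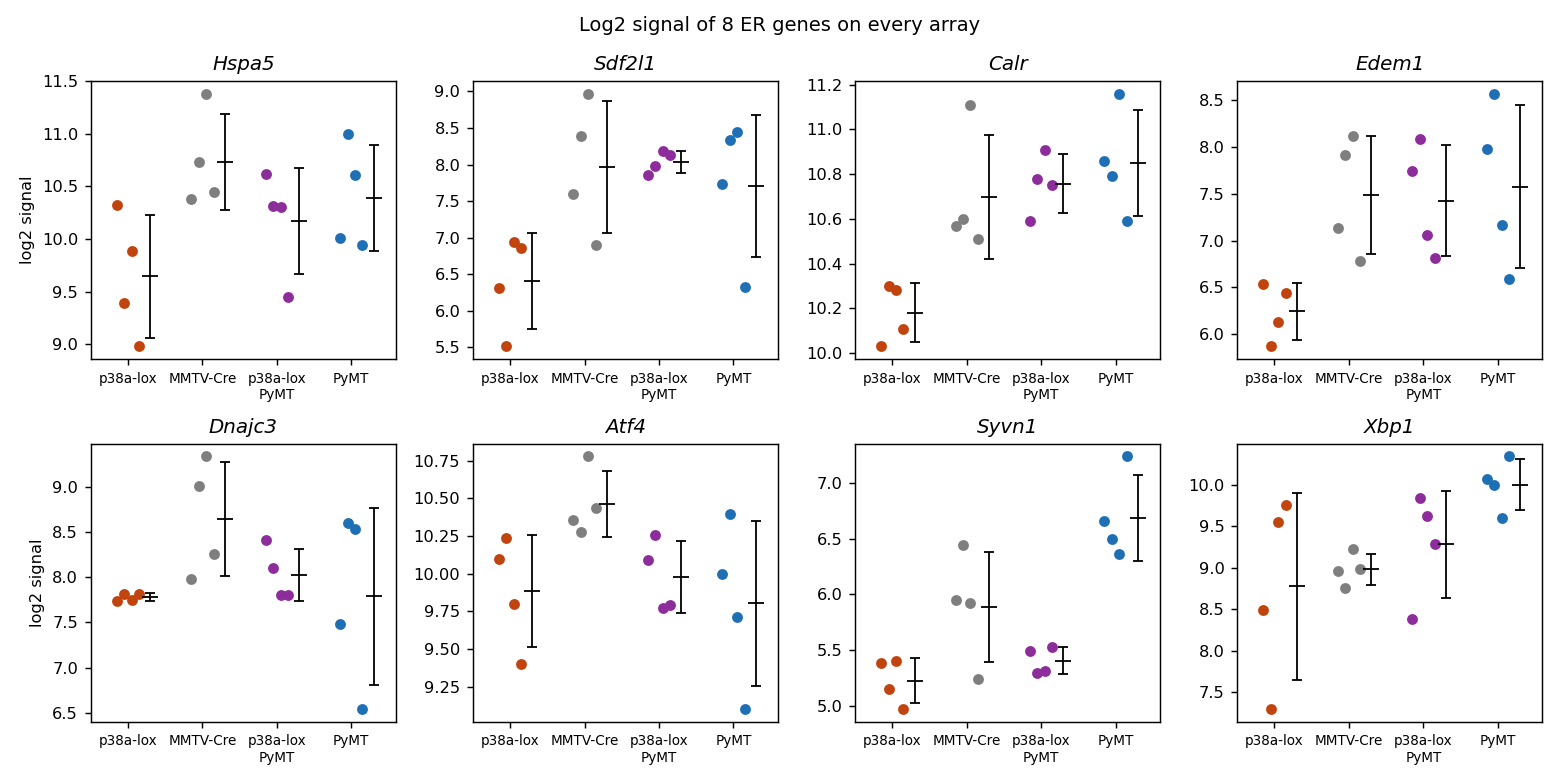
Log2 signal of 8 ER genes on every array, with bars the group mean ± SD of 4 arrays. Hspa5, Calr, Edem1, Dnajc3 and Atf4 show 4 p38a-lox arrays below all 4 MMTV-Cre arrays, and Syvn1 shows 4 p38a-lox PyMT arrays below all 4 PyMT arrays.

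Lower values in p38a-lox without PyMT were also seen over all probe sets. Of all 78 single-symbol probe sets of the 37 genes, 71 were lower in p38a-lox arrays, and in 18 of the 22 genes with several probe sets every probe set was lower. The sample titles hold numbers of unstated meaning that fall into a low and a high range. The ranges also differed in a technical control, the 3′ minus the 5′ signal of the Actb control probe sets. It was −0.54 to −0.12 in the arrays of the low range and −0.11 to 0.10 in those of the high range. The same measure of Gapdh overlapped between the ranges. Within the low range, with 2 arrays against 2, 32 genes were lower with a median of −0.48, and within the high range, also 2 against 2, 26 were lower with a median of −0.47. In the low range Mapk14 was lower in both p38a-lox arrays than in both MMTV-Cre arrays, and in the high range it was higher in both. The means over the 37 genes were 8.38 and 8.14 against 8.69 and 8.87 in the low range. In the high range they were 8.42 and 8.38 against 9.11 and 8.41. Lower ER means thus went with the label p38a-lox in both ranges, but with lower Mapk14 only in the low range. Any link to Mapk14 was not tested. Without p38a-lox replicate 2 and PyMT replicate 4, 30 genes were lower with a median of −0.34, and 3 of the 33, Canx, Edem3 and Xbp1, were then higher in p38a-lox. When each array was left out alone, 29 to 35 genes were lower, and the median was −0.55 without MMTV-Cre replicate 4 and −0.32 without MMTV-Cre replicate 3.

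All 9 genes with an ERSE match were lower in p38a-lox than in MMTV-Cre arrays, with a median of −0.58 and a range of −1.09 to −0.21, although Canx was higher without the 2 arrays that stood apart. Of the 22 genes whose window held no ERSE match, 21 were lower with a median of −0.30, and they include Sdf2l1 and Edem1 with the largest differences. The window of Edem1 did not cover its listed gene start. The other 10 tested genes with an ERSE match, among them the ER oxidase Ero1b and the mannosyltransferase Alg12, had 5 lower and 5 higher estimates with a median of −0.01. None of these genes was called by limma, and the groups of genes were not tested against each other.

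The same comparison was made with the oncogene, in p38a-lox PyMT against PyMT arrays. Of the 37 ER genes, 21 were lower and 16 higher with a median of −0.08, while 58.2% of all tested genes were lower with a median of −0.04. Of the 2564 tested genes with a mean of at least 8, 37.7% were lower with a median of 0.09, against 12 of the 24 ER genes at that level. Limma called 0 of 37 ER genes and 0 of 14410 genes (0%), with 516 genes at an unadjusted p under 0.05. At an unadjusted p under 0.05, 2 ER genes were lower, against 2.51% of all tested genes, and 0 were higher, against 1.07%. The chaperones were lower in 4 and higher in 7 cases (median 0.19), the disulfide isomerases 2 and 2 (0.13), the degradation factors 8 and 1 (−0.31), the sensors and factors 5 and 2 (−0.16), and the translocon genes 2 and 4 (0.14). The mean over the 37 genes was 8.71, 8.81, 8.66 and 8.62 in p38a-lox PyMT arrays, against 8.78, 9.09, 8.88 and 8.29 in PyMT arrays. PyMT replicate 4 was low for most ER genes, with 9 of 37 above the group mean. Without it and p38a-lox replicate 2, 28 of the 37 were lower with a median of −0.14, and leaving out PyMT replicate 4 alone gave the same count. The sign of 11 of the 37 estimates turned without these 2 arrays. Of all 78 probe sets 49 were lower, and among the 22 genes with several probe sets 8 had every one lower and 5 every one higher. Without p38a-lox PyMT replicate 4 or without PyMT replicate 3, 18 were lower and the median was 0.02 or 0.01, above 0 in both cases. Within the low range of title numbers, with 2 arrays against 3, 19 genes were lower with a median of −0.01. Within the high range, with 2 arrays against 1, 27 were lower with a median of −0.20.

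Syvn1 was the ER gene with the clearest difference in the presence of PyMT. It read 5.49, 5.29, 5.31 and 5.53 in p38a-lox PyMT arrays, against 6.66, 6.50, 6.36 and 7.24 in PyMT arrays. The groups were separated by 0.84, whereas the 4 p38a-lox PyMT arrays lay within 0.24 of each other. Syvn1 was the only ER gene whose groups did not overlap, where 1.89% of all tested genes were lower and 0.659% higher without overlap. The difference was −1.29 ± 0.229 (2.44-fold lower, 95% interval −1.77 to −0.80, limma adjusted p = 0.757, unadjusted 5.25e-05). Weighting the arrays by quality moved the adjusted p to 0.0366 with a difference of −1.22, the only one of 26 alternatives to call the gene (adjusted p 0.0366 to 1, limma). The other probe set of Syvn1 differed by −0.42, and the mean of both by −0.85. Without PyMT the difference of Syvn1 was −0.66, and the interaction between both was −0.62 ± 0.324 (adjusted p = 0.992).

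Other differences with PyMT stayed within overlapping groups. Eif2ak3 (PERK) read 5.69, 6.15, 5.83 and 5.82 in p38a-lox PyMT arrays, against 6.18, 6.29, 6.10 and 6.75 in PyMT arrays. Only p38a-lox PyMT replicate 2 reached into the PyMT range (−0.46 ± 0.195, adjusted p = 0.999), and the other 2 probe sets of the gene differed by 0.06 and −0.12. Herpud1 read 8.15, 7.62, 8.00 and 7.82 in p38a-lox PyMT arrays, against 8.53, 8.66, 8.12 and 8.78 in PyMT arrays. Its groups met at PyMT replicate 3 (−0.62 ± 0.319, adjusted p = 0.999). Xbp1 read 8.38, 9.84, 9.62 and 9.29 in p38a-lox PyMT arrays, against 10.07, 9.99, 9.60 and 10.34 in PyMT arrays, a difference of −0.72 ± 0.437 with an adjusted p of 0.999. Among the chaperones, Hsp90b1 had the largest positive difference (0.55 ± 0.354), Hspa5 differed by −0.22 ± 0.337, and Sdf2l1 by 0.33 ± 0.482. Without the 2 arrays that stood apart Hsp90b1 differed by 0.18 and Sdf2l1 by −0.14, and the other probe set of Hspa5 differed by 0.17. The 95% intervals of such differences are wide, and the missing calls do not show that the genes were alike.

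**Figure D4:**
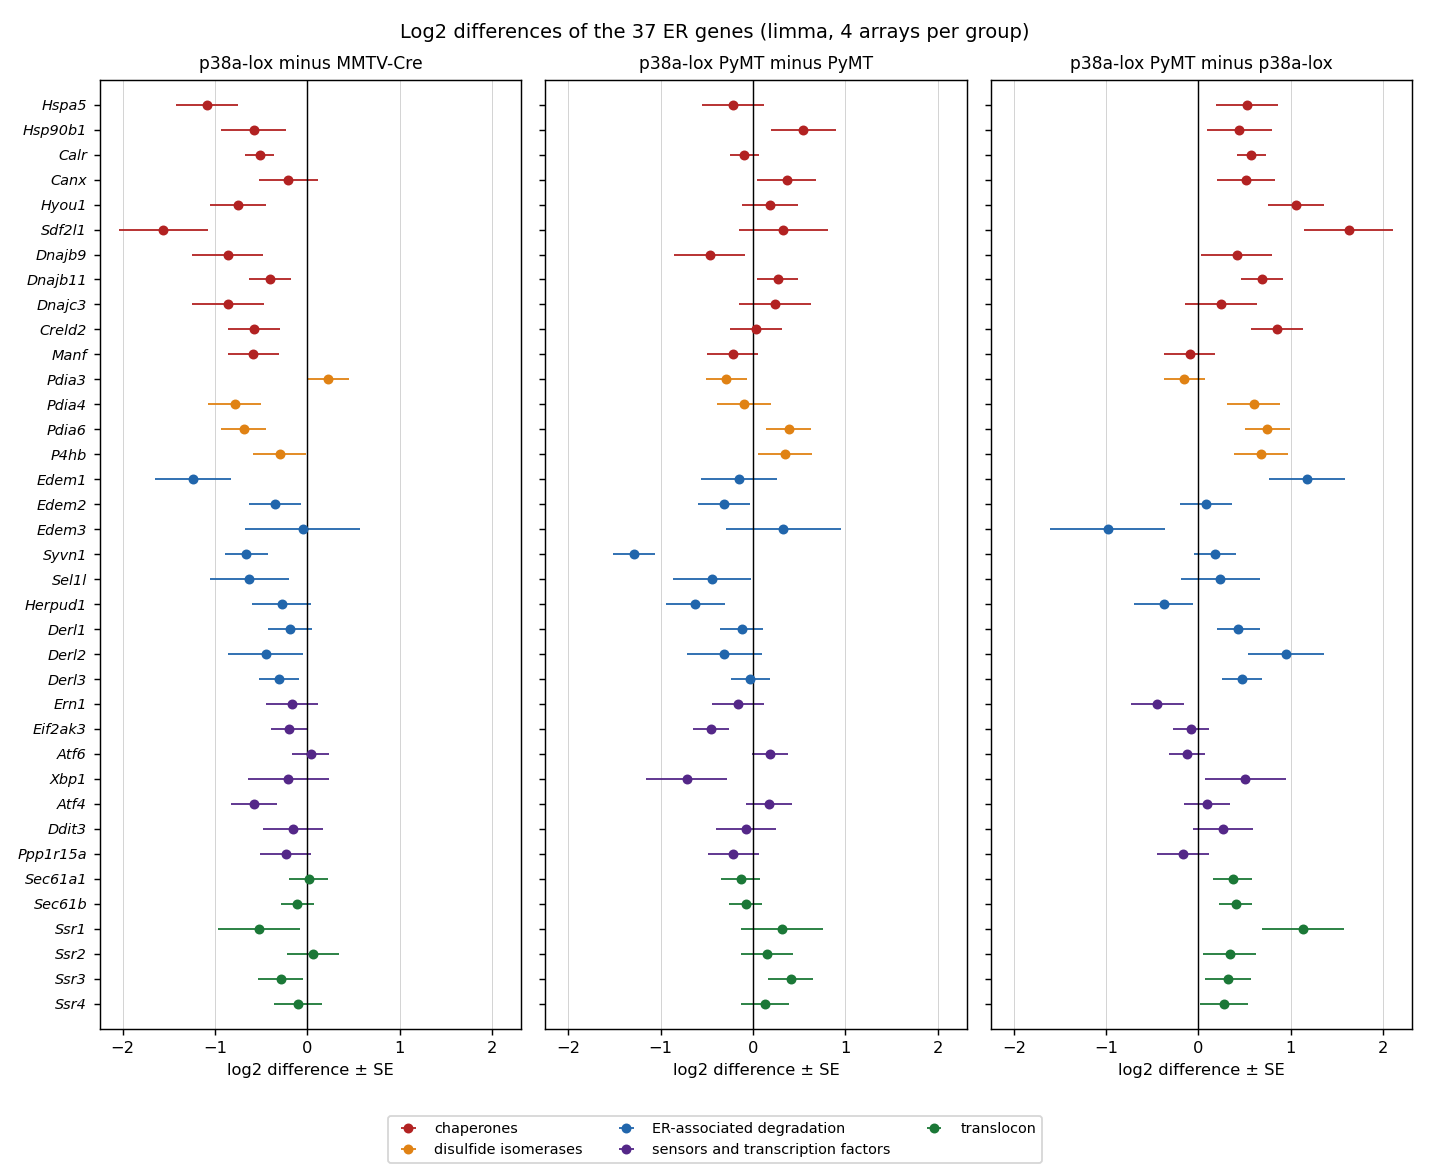
Log2 differences ± SE of the 37 ER genes from limma in p38a-lox minus MMTV-Cre, p38a-lox PyMT minus PyMT, and p38a-lox PyMT minus p38a-lox, with 4 arrays a group and colours by role. In p38a-lox minus MMTV-Cre 33 points lie left of 0, in p38a-lox PyMT minus PyMT 21, and in p38a-lox PyMT minus p38a-lox 8.

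The interaction, the p38a-lox difference with PyMT minus that without, tested whether the effect of the floxed allele depended on the oncogene group. Its estimate was positive for 31 of the 37 ER genes and negative for 6, with a median of 0.37, against a median of −0.04 over all tested genes. All 11 chaperones were positive (median 0.67). Limma called 0 of 37 ER genes and 0 of 14410 genes (0%), with 406 genes at an unadjusted p under 0.05. The 4 ER genes at an unadjusted p under 0.05 were positive, against 1.01% of all tested genes in that direction, and 0 were negative, against 1.8%. They were Sdf2l1 (1.89 ± 0.682), Hsp90b1 (1.13 ± 0.50), Pdia6 (1.08 ± 0.348) and Hyou1 (0.94 ± 0.43), each with an adjusted p of 0.992. The number of negative estimates was 11 without MMTV-Cre replicate 2, MMTV-Cre replicate 3, p38a-lox replicate 1 or p38a-lox replicate 2, each left out alone, and 10 without p38a-lox PyMT replicate 2. Without MMTV-Cre replicate 3 the median was 0.20. Leaving out PyMT replicate 4 lowered the median to 0.12 with 12 negative estimates, and leaving out both arrays that stood apart gave a median of 0.14 with 14 negative. Among the 2564 genes with a mean of at least 8, 67.2% had a positive interaction with a median of 0.17.

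Arrays with PyMT came from younger mice, so the oncogene and age cannot be told apart in the following comparisons either. In PyMT against MMTV-Cre arrays the 37 ER genes had 22 higher and 15 lower estimates with a median of 0.04. Over all tested genes 45.0% were lower, with a median of 0.03. Without the 2 arrays that stood apart the sign of 3 ER genes turned, Canx, Sdf2l1 and Pdia4, each from lower to higher. When each array was left out alone, 12 to 22 ER genes were lower, with medians of −0.15 to 0.22, so any lean depended on single arrays. Within the low range of title numbers, with 3 arrays against 2, 21 were lower with a median of −0.06. Within the high range, with 1 array against 2, 15 were lower with a median of 0.21. Limma called 0 of the 37, while 182 of 14410 genes (1.26%) were called, 0.881% higher and 0.382% lower. At an unadjusted p under 0.05, 3 ER genes were higher, against 7.78% of all tested genes, and 3 lower, against 5.98%. Shares of this size are close to the background. Xbp1 read 10.07, 9.99, 9.60 and 10.34 in PyMT arrays, against 8.96, 8.76, 9.22 and 8.98 in MMTV-Cre arrays. Every PyMT array was above every MMTV-Cre array (1.02 ± 0.437, 2.03-fold higher, adjusted p = 0.309). Sec61a1, the pore-forming subunit of the translocon, read 10.66, 10.54, 10.56 and 11.21 in PyMT arrays, against 10.11, 10.48, 10.22 and 10.10 in MMTV-Cre arrays. Its groups did not overlap either (0.51 ± 0.208, adjusted p = 0.274), and these were the 2 ER genes higher without overlap, against 4.44% of all tested genes. The other 3 probe sets of Sec61a1 differed by −0.30, 0.26 and 0.30. Atf6 was lower without overlap by a gap of less than 0.01 (−0.27 ± 0.197), against 2.65% of all tested genes. Of all 78 probe sets 45 were higher, and among the 22 genes with several probe sets 7 had every one higher and 7 every one lower. The mean of the 10 immediate early genes separated these groups, with 8.96 to 9.62 in PyMT arrays and 7.69 to 8.69 in MMTV-Cre arrays. Its members Fosb, Egr1, Egr2, Dusp1 and Nr4a1 were called higher. The mean of 7 basal cell genes was 7.27 to 8.05 in PyMT arrays and 5.88 to 7.64 in MMTV-Cre arrays (median difference 1.21, Trp63 called higher). That of 8 milk genes was 9.34 to 11.25 in PyMT arrays and 8.11 to 10.33 in MMTV-Cre arrays (median difference 1.08, Wap and Lalba called higher). Of these 8 marker genes Wap alone kept its call without PyMT replicate 1. The part of these lists in any difference was not tested.

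Syvn1 had the smallest p of the ER genes in PyMT against MMTV-Cre arrays. Its PyMT arrays at 6.36 to 7.24 overlapped the MMTV-Cre arrays at 5.24 to 6.44 through MMTV-Cre replicate 2 alone (0.80 ± 0.229, adjusted p = 0.103). Without that replicate the difference was 0.99 and the adjusted p 0.0348, the only call of an ER gene in this comparison among the fits that left out an array. Over all alternatives the limma adjusted p of Syvn1 ran from 0.0165 to 0.285, and its other probe set differed by 0.14. Atf4 read 10.00, 10.40, 9.71 and 9.10 in PyMT arrays, against 10.36, 10.28, 10.78 and 10.44 in MMTV-Cre arrays. It was lower in all PyMT arrays except replicate 2 than in every MMTV-Cre array (−0.66 ± 0.249, adjusted p = 0.234), while its other probe set differed by 0.23. Dnajc3 differed by −0.86 ± 0.391 and Edem3 by −1.36 ± 0.62, both with an adjusted p of 0.345. The other 4 probe sets of Dnajc3 lay between −0.04 and 0.38. The median over the 37 genes was −0.15 without MMTV-Cre replicate 4, −0.08 without PyMT replicate 2, −0.04 without PyMT replicate 1 and 0.22 without PyMT replicate 4, so its sign rested on single arrays.

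In p38a-lox PyMT against p38a-lox arrays the ER genes leaned upward. Of the 37, 29 were higher and 8 lower with a median of 0.40, while 46.5% of all tested genes were higher with a median of −0.02. Limma called 0 of the 37 and 112 of 14410 genes (0.777%, with 0.548% higher and 0.229% lower), and the smallest adjusted p of an ER gene was 0.11. At an unadjusted p under 0.05, 12 ER genes were higher, against 6.77% of all tested genes, and 0 were lower, against 5.38%. In 10 of the 37 every p38a-lox PyMT array was above every p38a-lox array, against 4.41% of all tested genes, and in 0 below, against 3.75%. They were the chaperones Calr, Hyou1, Sdf2l1, Dnajb11 and Creld2, the disulfide isomerases Pdia6 and P4hb, the degradation genes Edem1 and Derl1, and the TRAP subunit Ssr1. The p38a-lox arrays enter this comparison as they do the one with MMTV-Cre, so the low p38a-lox values bear on both.

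Hyou1 read 9.49, 9.66, 9.42 and 9.53 in p38a-lox PyMT arrays, against 8.60, 8.63, 8.07 and 8.54 in p38a-lox arrays. The gap between the groups was 0.79 (1.06 ± 0.304, 2.08-fold higher, adjusted p = 0.137). Sdf2l1 read 7.85, 7.98, 8.18 and 8.13 in p38a-lox PyMT arrays, against 6.31, 5.51, 6.94 and 6.86 in p38a-lox arrays. It had the largest difference of the ER genes (1.63 ± 0.482, 3.09-fold higher, adjusted p = 0.146). Calr read 10.59, 10.78, 10.91 and 10.75 in p38a-lox PyMT arrays, against 10.03, 10.30, 10.28 and 10.11 in p38a-lox arrays. Its groups were 0.28 apart, with the smallest p of the 37 (0.57 ± 0.156, adjusted p = 0.11). Edem1 read 7.74, 8.09, 7.06 and 6.81 in p38a-lox PyMT arrays, against 6.54, 5.87, 6.13 and 6.44 in p38a-lox arrays. It differed by 1.18 ± 0.412 (adjusted p = 0.228), with p38a-lox PyMT replicates 1 and 2 well above the others. Of the remaining genes without overlap, Ssr1 differed by 1.13 ± 0.447, Creld2 by 0.85 ± 0.281, Pdia6 by 0.74 ± 0.246, Dnajb11 by 0.69 ± 0.226, P4hb by 0.68 ± 0.292 and Derl1 by 0.43 ± 0.235. The 8 lower genes were Manf, Pdia3, Edem3, Herpud1, Ern1, Eif2ak3, Atf6 and Ppp1r15a, from −0.98 to −0.08. Without the 2 arrays that stood apart, Manf, Pdia3 and Ppp1r15a were higher and Edem2 lower.

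By role, 10 of 11 chaperones were higher in p38a-lox PyMT than in p38a-lox arrays (median 0.52), 3 of 4 disulfide isomerases (0.64), 7 of 9 degradation genes (0.24), 3 of 7 sensors and factors (−0.08) and 6 of 6 translocon genes (0.35). Of the 78 probe sets 61 were higher, and in 17 of the 22 genes with several probe sets every probe set was higher. Within the low range of title numbers and within the high one 30 genes each were higher, with medians of 0.54 and 0.19. Genes with a mean of at least 8 leaned upward as well, with 60.7% higher and a median of 0.11, and 21 of the 24 ER genes at that level were higher. The mean of 7 basal cell genes separated the groups, with 7.33 to 8.10 in p38a-lox PyMT arrays and 5.48 to 7.25 in p38a-lox arrays. The mean of 8 milk genes was 9.70 to 10.63 in p38a-lox PyMT arrays and 9.14 to 10.18 in p38a-lox arrays, which overlapped. Of 6 plasma cell markers, Jchain and Pou2af1 averaged 2.82 and 3.02 over all arrays, below the filter, and the other 4 averaged 4.13 to 5.22 with 0 called. The mean of the 7 immune cell genes was 4.65 to 4.84 in p38a-lox PyMT arrays and 4.14 to 4.77 in p38a-lox arrays. Of the 4 immune cell genes above the filter, Cd74 and Csf1r were lower in p38a-lox PyMT and Lyz2 and Cd68 higher, with a median difference of 0.09. Cd68 alone was called, higher without overlap, with 9.05 ± 0.303 in p38a-lox PyMT arrays and 6.31 ± 0.901 in p38a-lox arrays (SD, n = 4 each, log2 difference 2.74 ± 0.56, limma adjusted p = 0.0357). Its call was lost without p38a-lox replicate 1, 3 or 4, without PyMT replicate 1 and without p38a-lox PyMT replicate 2, 3 or 4 (limma adjusted p 0.000587 to 0.134 over 26 alternatives). The immediate early gene Fosb was also called higher, except without p38a-lox PyMT replicate 2 or 3. The part of these lists in the result was not tested.

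Across the 4 groups, p38a-lox had the lowest mean for 24 of the 37 ER genes, where it was the lowest group for 27.6% of all tested genes. It had the highest mean for 1 ER gene, the sensor Atf6, against 27.1% of all tested genes. MMTV-Cre had the highest mean for 10 ER genes, p38a-lox PyMT for 11 and PyMT for 15, against 22.6%, 17.1% and 33.2% of all tested genes.

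Within groups the ER genes varied more than most genes. The median SD over 4 arrays was 0.388 for the 37 genes against 0.331 for all tested genes in p38a-lox, 0.436 against 0.244 in MMTV-Cre, 0.25 against 0.213 in p38a-lox PyMT and 0.473 against 0.295 in PyMT. After each group's mean was subtracted, the median Pearson correlation between ER genes over the 16 arrays was 0.23 in 666 pairs, against 0.03 over all pairs of tested genes. These correlations are between genes read from the same hybridisations and normalized together, and each rests on 12 free differences. The 11 chaperones were correlated positively in all 55 of their pairs with a median of 0.55, and in 90.9% of pairs with a median of 0.41 without the 2 arrays that stood apart. The closest pairs were Manf with Atf4 (0.93), Canx with Ssr3 (0.93) and Pdia6 with Sdf2l1 (0.89). The sensors and factors did not vary as a block, with a median of −0.11 (0.08 without the 2 arrays that stood apart), nor did the translocon genes once these arrays were left out (0.01, against 0.29 with them). Eif2ak3 ran against the other ER genes with a median of −0.33. Syvn1 also varied apart from them, with a median of −0.05 and its closest partner Herpud1 at 0.67.

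**Figure D5:**
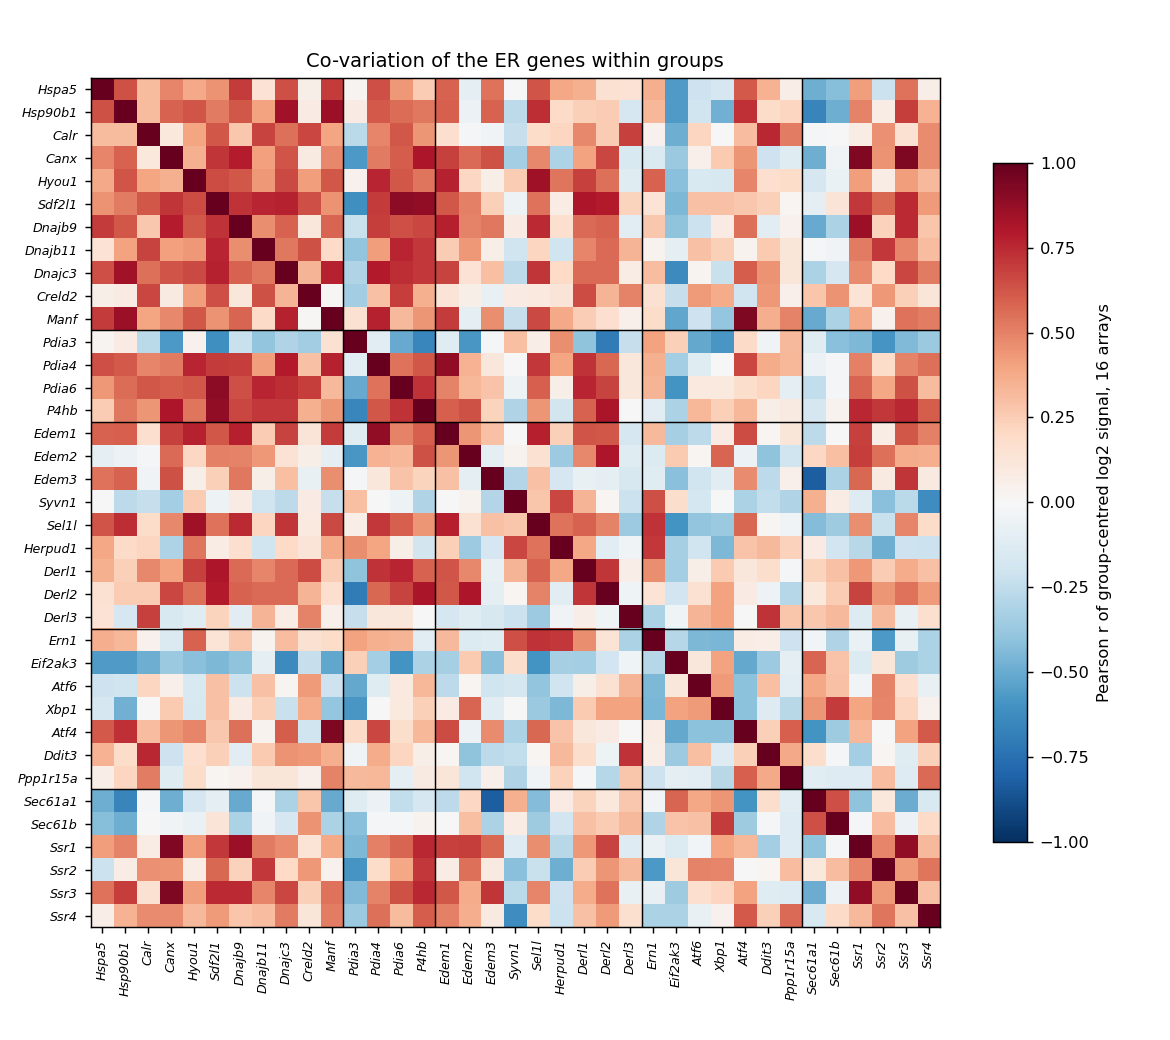
Pearson correlation of group-centred log2 signal between the 37 ER genes over 16 arrays, ordered by role with lines between roles. The block of 11 chaperones at the upper left is positive throughout (median 0.55), and the row of Eif2ak3 is mostly negative (median −0.33).

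The wider pathway was described with 82 further genes of ER folding, degradation, stress signalling, translocation and glycosylation, of which 72 were tested. In p38a-lox against MMTV-Cre arrays 57 of the 72 were lower and 15 higher, with a median of −0.30 and 0 called. Of all tested genes 49.9% were lower in this comparison. The largest group difference was in genes of the integrated stress response, which act downstream of PERK and Atf4. Of 12 tested, 11 were lower with a median of −0.60, among them Ddit4, an inhibitor of mTORC1 that hypoxia also induces (−1.79 ± 0.549), and the pseudokinase Trib3 (−0.81 ± 0.339). In p38a-lox PyMT against PyMT arrays 40 of the 72 were lower with a median of −0.02 and 0 called, where 58.2% of all tested genes were lower. For the interaction 56 of the 72 estimates were positive with a median of 0.29, against 44.8% of all tested genes.

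Called genes of the wider pathway appeared between arrays with and without PyMT. Sec11c, a catalytic subunit of the signal peptidase that cuts signal sequences, averaged 9.14 ± 0.225 in PyMT arrays and 7.33 ± 0.394 in MMTV-Cre arrays (SD, n = 4 each). It rose by 1.81 ± 0.234 with a limma adjusted p of 0.00255. Sec11c also rose in p38a-lox PyMT arrays, to 9.40 ± 0.128 against 8.10 ± 0.499 in p38a-lox arrays (1.30 ± 0.234, limma adjusted p = 0.0196). The first of these calls held under all 26 alternatives (adjusted p 0.000531 to 0.0172), and the second was lost without p38a-lox replicate 1 or 3 or p38a-lox PyMT replicate 2, 3 or 4 (adjusted p 0.000128 to 0.0799). Creb3l1 (OASIS), an ER-bound transcription factor released by cleavage, averaged 8.29 ± 0.611 in PyMT arrays and 6.38 ± 0.367 in MMTV-Cre arrays (SD, n = 4 each) and rose by 1.91 ± 0.356 (limma adjusted p = 0.0186). Its call was lost without MMTV-Cre replicate 4, without PyMT replicate 1 or 4, when only the compared arrays were fitted, and without both arrays that stood apart (adjusted p 0.00366 to 0.0736 over 26 alternatives). Cebpb, a transcription factor of mammary development that also dimerises with CHOP, averaged 10.1 ± 0.696 in PyMT arrays and 8.58 ± 0.566 in MMTV-Cre arrays. It rose by 1.56 ± 0.353 (limma adjusted p = 0.0457), and its call was lost under 18 of 26 alternatives (adjusted p 0.013 to 0.15). They include the fits without MMTV-Cre replicate 1, 2 or 4, any of the 4 p38a-lox arrays, PyMT replicate 1, 3 or 4, or p38a-lox PyMT replicate 3 or 4. As the mean of its probe sets Cebpb differed by 0.67. Tram1, a translocon partner that helps chains enter the membrane, averaged 8.11 ± 0.423 in p38a-lox PyMT arrays and 6.13 ± 0.70 in p38a-lox arrays, a rise of 1.98 ± 0.362 (limma adjusted p = 0.0196). The call of Tram1 was lost without p38a-lox replicate 1 or 2 or p38a-lox PyMT replicate 2, 3 or 4, and without both arrays that stood apart (adjusted p 0.00192 to 0.0908 over 26 alternatives), and as the mean of its probe sets Tram1 differed by 1.03. Of the 72 genes, 43 were higher in PyMT than in MMTV-Cre arrays with 3 called higher and 0 called lower (median 0.11), where 45.0% of all tested genes were lower, 0.881% were called higher and 0.382% called lower. In p38a-lox PyMT against p38a-lox arrays 58 were higher with 2 called higher and 0 called lower (median 0.32), including 19 of 19 genes of translocation and glycosylation (median 0.66). Over all tested genes 46.5% were higher, with 0.548% called higher and 0.229% called lower. The values of the basal, milk, immune and immediate early genes in the same groups are given above.

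Genes of the neighbouring steps were counted in the same way. Of 14 tested genes of the COPII coat, which carries folded proteins out of the ER, 11 were lower in p38a-lox than in MMTV-Cre arrays with a median of −0.25 and 0 called. Of 23 cytosolic heat shock and chaperonin genes, which fold proteins outside the ER, 15 were lower with a median of −0.05 and 0 called. The means of the cytosolic list were 9.81 to 10.36 in p38a-lox arrays and 9.85 to 10.42 in MMTV-Cre arrays, which overlapped almost fully. The ER genes were not tested against either list.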

How the data were processed

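RNA of sorted mammary luminal cells was hybridised to 16 Affymetrix arrays, 1 per sample. The deposited series table holds log2 signals of 45141 probe sets that the authors made with RMA, per the submitters' processing notes. RMA sets all arrays to 1 distribution and summarises the probes of a set, so a shift shared by all genes cannot be seen, and levels of different probe sets are not compared. Values ran from 2.20 to 13.09, and precision rests on 4 arrays a group.

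The platform annotation gave 1 symbol for 28898 probe sets, several for 551 and none here for 15692. Of the 28898, 28689 matched RefSeq by Entrez ID, with 0 symbols changed. The probe set with the highest average stood for each of 17097 genes, and 14410 with an average of at least 3.67, the 25th percentile of all probe sets, were tested. Limma 3.58.1 (R 4.3.3) fitted 1 model with 4 group means over the 16 arrays (12 residual degrees of freedom, lmFit and eBayes). P-values were adjusted over 14410 genes in each comparison (Benjamini-Hochberg), with a threshold of 0.05, and intervals are at 95%. The fit was tested on simulated arrays with independent noise for each gene and no array that stood apart. That test checked only that set changes were recovered on average, and it does not bear on the calls in these data. Every ± after a log2 difference is a standard error, and every adjusted p is limma's, two-sided.

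All 37 ER genes are described. Of each further pathway list the called genes, at most 4 with the smallest p, were to be named, and of marker lists the mean levels. The members and lists were chosen with earlier results of these data known. Genes on the lists but without a single-symbol probe set were not analysed here. The alternatives changed the filter, the probe set rule, the variance model, the normalization, array weights, the arrays fitted, a covariate for the title number and each array left out. Leaving out both arrays that stood apart, counting all probe sets, and setting other genes with the promoter element beside the ER genes were chosen after seeing the data.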

Additional observations from a re-analysis of the deposited data

Results flagged for a closer look

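In 8 of the 148 sets of 4 arrays (37 genes in 4 groups), 1 array lay far from the other 3 by Dixon's criterion, which chance passes in about 1 in 20 sets. In p38a-lox arrays Canx read 9.70 in replicate 2 and 10.77 to 10.95 in the others, and Hyou1 read 8.07 in replicate 3 and 8.54 to 8.63 in the others. In MMTV-Cre arrays Calr read 11.11 in replicate 3 and 10.51 to 10.60 in the others. Canx in the same group read 10.88 in replicate 3 and 10.74 in each of the others, a small distance. Dnajb9 read 6.87 in MMTV-Cre replicate 4 and 7.95 to 8.12 in the others. The other 3 sets were in PyMT, with replicate 4 low in each. P4hb read 10.17 there and 11.52 to 11.77 in the other PyMT arrays, Derl2 7.35 and 8.58 to 8.78, and Ssr2 9.60 and 10.45 to 10.61. PyMT replicate 4 and p38a-lox replicate 2 are the arrays that stood apart over all genes.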

How the results depend on the processing

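Of 968 alternative values for 35 results on single ER genes, 955 kept their direction and their side of the threshold, 13 were newly called and 0 reversed. These 35 are only a part of the estimates of the 37 genes. Over all 37, without both arrays that stood apart, the sign turned for 3 genes in p38a-lox against MMTV-Cre and 11 in p38a-lox PyMT against PyMT. It turned for 3 in PyMT against MMTV-Cre and 4 in p38a-lox PyMT against p38a-lox. Array weights gave 8 called genes in p38a-lox against MMTV-Cre and 5 in p38a-lox PyMT against PyMT, of which 1, Syvn1, is an ER gene. They also gave 1268 called genes in PyMT against MMTV-Cre (3 ER genes) and 1416 in p38a-lox PyMT against p38a-lox (7 ER genes, Calr, Hyou1, Sdf2l1, Dnajb11, Creld2, Pdia6 and Edem1). With only the compared arrays fitted, 55 genes were called in PyMT against MMTV-Cre and 169 in p38a-lox PyMT against p38a-lox, with 2 ER genes, Hyou1 and Sdf2l1. Without the filter 1 gene was called in p38a-lox against MMTV-Cre. Negative interactions numbered 13 after a second quantile normalization, 14 with array weights and 14 without both arrays that stood apart, which also left 111 called genes in PyMT against MMTV-Cre. The cause of these changes was not tested.

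When each array was left out alone, called genes numbered 0 to 4 in p38a-lox against MMTV-Cre, 0 to 3 in p38a-lox PyMT against PyMT, 0 for the interaction, 49 to 443 in PyMT against MMTV-Cre and 26 to 230 in p38a-lox PyMT against p38a-lox. In PyMT against MMTV-Cre the count was 49 to 90 without MMTV-Cre replicate 1, 3 or 4 or PyMT replicate 1 or 4, 336 without MMTV-Cre replicate 2 and 443 without PyMT replicate 2. In p38a-lox PyMT against p38a-lox it was 26 to 47 without p38a-lox replicate 1 or 3 or p38a-lox PyMT replicate 2, 3 or 4, 194 without p38a-lox PyMT replicate 1 and 230 without MMTV-Cre replicate 2. Called ER genes numbered 0 to 1 in PyMT against MMTV-Cre (Syvn1 without MMTV-Cre replicate 2) and 0 in the other comparisons. Negative interactions numbered 6 to 12, with medians of 0.12 to 0.44. Calls of the wider pathway that were lost are given beside them. No paired analysis was possible because the labels give no number or litter that ties arrays of different groups together. For dim probe sets such as that of Pdia3 (group means of 4.39 to 4.75, with the filter at 3.67) signal near background limits what can be measured.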
